A study of Homo sapiens with 16 samples.

Results

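Histone H2B is one of the core proteins around which DNA is wound, and most of it is made from a family of clustered genes that are transcribed during DNA replication. The genes read here are H2BC4, H2BC5, H2BC6, H2BC9, H2BC12 and H2BC21, 6 of the 19775 genes that the arrays represent by a probe set with a single gene symbol. They were taken by name, in a choice made with earlier results of these data known. All probe sets whose only symbol is 1 of these genes were read, which gave 7 of 54675 probe sets. H2BC5 had 2 probe sets and each other gene had 1. The study asked how excess SMYD2, a lysine methyltransferase, acts on RB put back into SAOS cells, an established human osteosarcoma line without functional RB. RB is the retinoblastoma protein, which restrains the E2F factors that drive entry into S phase.

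RNA was read on 16 Affymetrix U133 Plus 2.0 arrays, 4 for each group. The groups were SAOS cells transiently transfected with both human RB and mouse SMYD2 (RB plus SMYD2), with human RB alone (RB), with mouse SMYD2 alone (SMYD2), and cells with no transfection (control). No group given an empty vector is described, so the effect of transfection itself cannot be told apart from that of the construct wherever control is the comparison. The arrays are numbered 1, 3, 4 and 5 within each group. The descriptions do not call them separate cultures, and a p-value here then reflects the spread among these samples alone, which can be technical. Values are log2 signals, errors of group means are SD with n = 4 and errors of differences are standard errors (SE). Adjusted p-values are from limma, with Benjamini-Hochberg adjustment over all 54675 probe sets, and a probe set is said to have passed, risen or fallen at an adjusted p under 0.05.

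Most messages of clustered histone genes end in a stem-loop in place of a poly(A) tail, and they accumulate in S phase and are degraded when replication ends. Several H2B genes, H2BC5, H2BC12 and H2BC21 among them, are also known to give polyadenylated messages outside S phase. The proteins they encode differ at few residues, and the genes are alike in sequence. The sources used here do not say whether the labelling was primed from poly(A) tails.

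In human H2B promoters, the octamer motif is bound by OCT1 (POU2F1) and its coactivators, which carry H2B transcription in S phase, and the CCAAT box is bound by NF-Y. The 150 bases before the annotated start of each gene are shown because the genes differed in their values between groups while sharing upstream elements. The sequences are from RefSeq on the build GRCh38.p14, where all 6 genes were matched. They run 5′ to 3′ on the strand of the gene, with the octamer ATTTGCAT in capitals.
H2BC4: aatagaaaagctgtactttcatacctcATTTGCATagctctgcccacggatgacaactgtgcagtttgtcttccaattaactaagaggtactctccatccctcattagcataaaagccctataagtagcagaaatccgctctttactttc
H2BC5: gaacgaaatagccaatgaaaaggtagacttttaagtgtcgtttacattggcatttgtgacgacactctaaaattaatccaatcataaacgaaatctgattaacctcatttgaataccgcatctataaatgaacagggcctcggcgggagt
H2BC6: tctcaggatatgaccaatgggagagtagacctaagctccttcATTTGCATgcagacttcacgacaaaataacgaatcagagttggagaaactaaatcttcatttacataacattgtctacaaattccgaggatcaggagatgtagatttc
H2BC9: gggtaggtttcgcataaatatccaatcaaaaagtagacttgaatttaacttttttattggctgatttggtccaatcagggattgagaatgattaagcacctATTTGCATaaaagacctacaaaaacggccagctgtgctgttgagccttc
H2BC12: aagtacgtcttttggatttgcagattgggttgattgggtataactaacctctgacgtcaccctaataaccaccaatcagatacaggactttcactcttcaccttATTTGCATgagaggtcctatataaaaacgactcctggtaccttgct
H2BC21: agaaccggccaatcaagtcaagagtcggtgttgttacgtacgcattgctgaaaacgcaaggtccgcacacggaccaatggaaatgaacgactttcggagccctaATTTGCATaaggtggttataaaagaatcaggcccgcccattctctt
The windows are chr6:26123927-26124076 on the minus strand for H2BC4 and chr6:26157971-26158120 on the plus strand for H2BC5. They are chr6:26183611-26183760 on the plus strand for H2BC6 and chr6:26251464-26251613 on the plus strand for H2BC9. They are chr6:27146859-27147008 on the minus strand for H2BC12 and chr1:149886683-149886832 on the minus strand for H2BC21. H2BC5 and H2BC12 have 2 annotated starts each, and the window of the first was taken.

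The octamer ATTTGCAT, searched on both strands, was present in 5 of the 6 windows and not in that of H2BC5. It was present in 9 of 12 promoters of other clustered H2B genes, in 6 of 45 promoters of clustered H1, H2A, H3 and H4 genes, and in 0.985% of all 27305 promoters. Its first base lay 123 bases before the start in H2BC4, 108 bases before it in H2BC6, 49 in H2BC9, and 46 in both H2BC12 and H2BC21. The box CCAAT was present in all 6 windows and in 24.4% of all promoters. It was also in 12 of 12 promoters of other clustered H2B genes and 35 of 45 of the H1, H2A, H3 and H4 genes. The TATA motif TATAAA was present in H2BC5, H2BC12 and H2BC21 and in 7.05% of all promoters. Among the same other histone genes it was in 5 of 12 and 27 of 45, so neither motif is particular to these 6 genes. The E2F motifs TTTGGCGC and TTTCGCGC, the only E2F forms searched, were in 0 of the 6 windows. They were in 0.374% and 0.322% of all promoters. Both were in 0 of the 12 other H2B promoters, and in 0 and 6 of the 45. No 2 different motifs overlapped. The arrays hold no measure of binding at these sequences.

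The suffix of a probe set is the array design's own note on how its probes matched, and the annotation used here does not always bear it out. The sets 236193_at for H2BC4 and 209806_at for H2BC12 have the plain suffix _at, which the design gives to probes matched to 1 transcript, although plain sets described further on list several H2B genes. The set 202708_s_at for H2BC21 is an _s_at set, whose probes are shared by several transcripts. The sets 209911_x_at and 222067_x_at for H2BC5, 208527_x_at for H2BC6 and 208546_x_at for H2BC9 are _x_at sets, in which some probes match other sequences. An _x_at value may therefore include signal from related H2B genes. Signals of different probe sets cannot be set against each other, so each set is compared with itself across groups.

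Array medians lay between 5.59 and 5.64, a likeness that the quantile normalization in RMA can itself produce, so they do not measure quality. Correlations between arrays of a group were 0.981 to 0.998. The SMYD2 array 1 stood apart in RNA integrity, with a gap between the 3′ and 5′ probe sets of ACTB of 3.53, against 0.54 to 2.46 on the other 15 arrays. The brighter RB1 probe set, 211540_s_at, checked the RB label at 8.67 ± 0.90 with RB plus SMYD2, 7.70 ± 0.34 with RB, 6.85 ± 0.17 with SMYD2 and 6.48 ± 0.32 in control. Its groups did not overlap between RB and control, nor between RB plus SMYD2 and SMYD2 (exact two-sided permutation p = 0.0286 each, the smallest that 4 arrays against 4 allow). In limma this set passed between RB plus SMYD2 and SMYD2 (adjusted p = 0.00225). It did not pass between RB and control (adjusted p = 0.0727) or between RB and SMYD2 (adjusted p = 0.242). The other RB1 set, 203132_at, read 3.51 ± 0.094, 3.44 ± 0.048, 3.44 ± 0.075 and 3.49 ± 0.033 in the same order of groups and did not pass in any comparison. The brightest SMYD2 probe set, 212922_s_at, read 10.28 ± 0.071 with SMYD2 and 10.16 ± 0.049 in control. The construct is the mouse gene and the probes are human, so this set checks nothing about it. Means over the 16 arrays were 10.03 to 13.54 for 7 of 8 osteoblast genes, among them RUNX2, ALPL and COL1A1, and 5.62 for SPP1. The 3 leukocyte genes read 3.82 (PTPRC) to 5.72 (CD3E) and the 5 endothelial genes 3.85 (KDR) to 6.24 (PECAM1). Of 5 epithelial genes, CDH1 read 4.11, KRT19 4.81, KRT8 6.54, EPCAM 9.40 and KRT18 9.74. Of 5 neural genes, MAP2 read 8.29 and the other 4 read 3.95 to 6.08.

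H2BC4 and H2BC21 rose with RB, both with SMYD2 and without it, by 2.39-fold to 3.77-fold. H2BC5 rose by 1.51-fold in 1 of its 2 probe sets, between RB plus SMYD2 and SMYD2. H2BC6, H2BC9 and H2BC12 gave differences of 0.21 to 0.46 in the same 2 comparisons and did not pass in the fit without the replicate number. With the replicate number as a block, H2BC6 and H2BC12 passed in both (adjusted p between 0.00164 and 0.0278) and H2BC9 passed between RB plus SMYD2 and SMYD2 (adjusted p = 0.0172). For SMYD2 against control the 7 differences lay between -0.20 and 0.081.

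**Figure D1:**
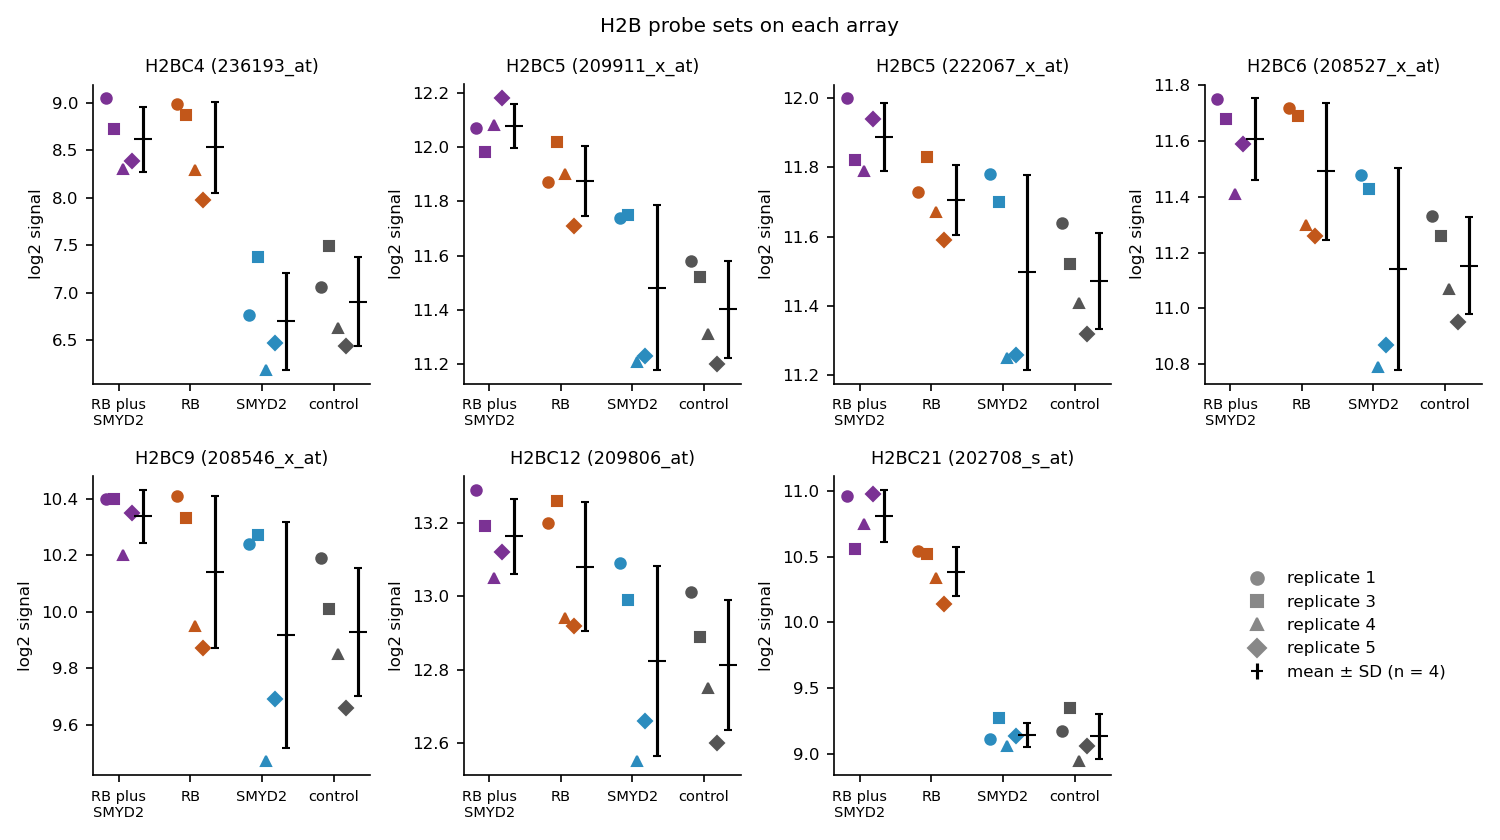
Log2 signal of the 7 H2B probe sets on each of the 16 arrays, 1 panel per probe set with its own vertical axis that does not start at 0. Groups run from RB plus SMYD2 to control, the shape of a point gives its replicate number, and the bars give the mean and SD (n = 4). H2BC4 and H2BC21 are the panels in which all 8 arrays with RB lie well above all 8 without it.

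H2BC4 lies in the large histone cluster on chromosome 6. Its probe set read 9.05, 8.73, 8.30 and 8.39 on the arrays with RB plus SMYD2 (replicates 1, 3, 4 and 5 in this and later lists). It read 8.99, 8.87, 8.29 and 7.98 with RB, 6.77, 7.38, 6.19 and 6.47 with SMYD2, and 7.06, 7.49, 6.63 and 6.44 in control. Every array with RB lay above every array without it, and in each group replicates 1 and 3 lay above replicates 4 and 5. RB exceeded control by 1.63 ± 0.28, a 3.10-fold difference (adjusted p = 0.00630), and this was the third largest difference in size among all probe sets. RB plus SMYD2 exceeded SMYD2 by 1.92 ± 0.28, or 3.77-fold (adjusted p = 0.000518). The difference between RB and control lay between 1.38 and 1.94 in the 4 same-numbered pairs. In RNA from a whole culture, fewer cells of a type and less RNA per cell cannot be told apart, and this holds for each difference given here.

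H2BC21 lies apart from the others, in the small histone cluster on chromosome 1. Its probe set read 10.96, 10.56, 10.75 and 10.98 with RB plus SMYD2. It read 10.54, 10.52, 10.34 and 10.14 with RB, 9.11, 9.27, 9.06 and 9.13 with SMYD2, and 9.17, 9.35, 8.94 and 9.06 in control. The groups with RB lay above the groups without it with a wide gap, while SMYD2 and control were mixed. RB exceeded control by 1.25 ± 0.12, or 2.39-fold (adjusted p = 0.000308), the smallest p of all probe sets in that comparison. RB plus SMYD2 exceeded SMYD2 by 1.67 ± 0.12, or 3.19-fold (adjusted p = 2.2e-06), again with the smallest p of all.

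H2BC5 was read by 2 _x_at sets that did not move equally. The set 209911_x_at read 12.07, 11.98, 12.08 and 12.18 with RB plus SMYD2, 11.87, 12.02, 11.90 and 11.71 with RB, 11.74, 11.75, 11.21 and 11.23 with SMYD2, and 11.58, 11.52, 11.31 and 11.20 in control. All arrays with RB plus SMYD2 lay above all SMYD2 and control arrays, and all RB arrays lay above control. RB plus SMYD2 exceeded SMYD2 by 0.60 ± 0.12, or 1.51-fold (adjusted p = 0.0100). With only the arrays of these 2 groups in the fit it did not pass (adjusted p = 0.0649). RB against control gave 0.48 ± 0.12 (adjusted p = 0.0790), which passed with the replicate number as a block (adjusted p = 0.0158) and with the SMYD2 array 1 left out (adjusted p = 0.0337). The second set, 222067_x_at, had means of 11.89 ± 0.10 with RB plus SMYD2, 11.71 ± 0.10 with RB, 11.50 ± 0.28 with SMYD2 and 11.47 ± 0.14 in control. Its RB and control arrays overlapped, and their difference was 0.23 ± 0.11 (adjusted p = 0.515). Its difference between RB plus SMYD2 and SMYD2 was 0.39 ± 0.11 (adjusted p = 0.0752, and 0.00801 with the block).

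H2BC12, whose set has the plain suffix, read 13.29, 13.19, 13.05 and 13.12 with RB plus SMYD2, 13.20, 13.26, 12.94 and 12.92 with RB, 13.09, 12.99, 12.55 and 12.66 with SMYD2, and 13.01, 12.89, 12.75 and 12.60 in control. The RB and control arrays overlapped, and within each group replicates 1 and 3 were the higher ones. The difference between RB and control was 0.27 ± 0.12 (adjusted p = 0.443), and it passed with the replicate block (adjusted p = 0.0226).

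H2BC6 had a mean of 11.61 ± 0.15 with RB plus SMYD2, 11.49 ± 0.24 with RB, 11.14 ± 0.36 with SMYD2 and 11.15 ± 0.18 in control. RB against control gave 0.34 ± 0.16 (adjusted p = 0.478, and 0.0278 with the block). H2BC9 had a mean of 10.34 ± 0.095 with RB plus SMYD2, 10.14 ± 0.27 with RB, 9.92 ± 0.40 with SMYD2 and 9.93 ± 0.22 in control. RB against control gave 0.21 ± 0.17 for H2BC9 (adjusted p = 0.778, and 0.366 with the block). With each array left out this ran between 0.12 and 0.30, and it was 0.12 without RB 1 and 0.13 without control 5. Both genes had RB arrays on either side of the highest control array.

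Of the 7 H2B probe sets, 2 passed between RB and control, those of H2BC4 and H2BC21, and both rose. The background was 1.08% of all probe sets in either direction and 0.417% higher. Because the genes were chosen with earlier results of these data known, this share and the later ones are a description and not a test. All 7 differences were positive, with a median of 0.34, against a median near 0 over all probe sets, and RB was the higher in 4 of 4 same-numbered pairs for all 7. The 2 groups did not overlap in 3 of the 7, against 3.59% of all probe sets that lay wholly higher. With the replicate number as a block, 5 of 7 passed, the same 2 with 209911_x_at of H2BC5, H2BC6 and H2BC12, against a background of 3.29%. H2BC4 and H2BC21 passed whichever of the 16 arrays was left out.

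Between RB plus SMYD2 and SMYD2, 3 of 7 rose, H2BC4, H2BC21 and 209911_x_at of H2BC5, with a background of 3.5% in either direction and 1.38% higher. Again all 7 were higher in 4 of 4 pairs, and the groups did not overlap in 4 of the 7, against 4.12% of all sets that lay wholly higher. H2BC6, H2BC9 and H2BC12 gave 0.46 ± 0.16, 0.42 ± 0.17 and 0.34 ± 0.12, with adjusted p-values of 0.133, 0.239 and 0.150. With the block all 7 passed, against a background of 7.33%. Without the SMYD2 array 1, the one with the wide ACTB gap, 6 of 7 passed. The share of all probe sets in that fit is not given here, and calls rose elsewhere too. Of 18 measured genes that transcribe and process histone messages, 7 fell in it, against 4 in the reported fit.

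Between RB plus SMYD2 and control the same 3 passed, with a background of 3.53% in either direction and 1.41% higher. H2BC4 differed by 1.72 ± 0.28, H2BC21 by 1.68 ± 0.12 and 209911_x_at of H2BC5 by 0.68 ± 0.12 (adjusted p = 0.00134, 2.04e-06 and 0.00383). The groups did not overlap in any of the 7 sets, against 5.33% of all sets that lay wholly higher, and with the block all 7 passed, against 6.96%. Between RB and SMYD2, both of them transfected, 2 of 7 passed, with a background of 1.23% in either direction and 0.554% higher. H2BC4 was higher with RB by 1.83 ± 0.28 (adjusted p = 0.00282) and H2BC21 by 1.24 ± 0.12 (adjusted p = 0.000183). These comparisons share groups with those above and are not separate evidence.

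**Figure D2:**
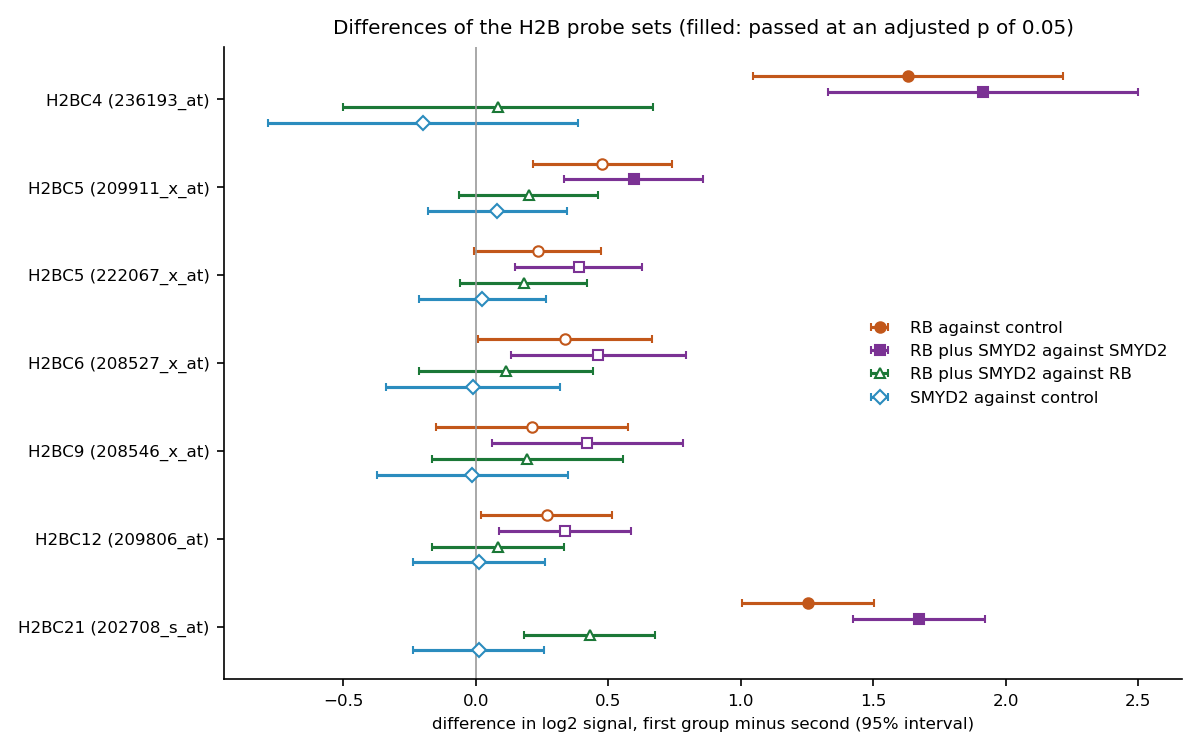
Differences in log2 signal of the 7 H2B probe sets in 4 comparisons, first group minus second, with 95% confidence intervals from the limma fit; filled symbols passed at an adjusted p under 0.05. H2BC4 and H2BC21 stand near 1.25 to 1.92 in both comparisons of RB with its absence, while the intervals of SMYD2 against control all include 0.

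No H2B probe set passed between SMYD2 and control, where limma called 0 of all 54675 sets and 3.06% had an unadjusted p under 0.05. Of the 7 H2B sets, 0 had an unadjusted p under 0.05. The differences ran between -0.20 for H2BC4 and 0.081 for 209911_x_at of H2BC5. That of H2BC21 was 0.011, with a 95% interval of -0.24 to 0.26. That of H2BC4 was -0.20, with a wider interval of -0.78 to 0.39.

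No H2B probe set passed between RB plus SMYD2 and RB, where limma called 1 of all 54675 sets, or 0.00183%, and 2121 had an unadjusted p under 0.05. All 7 differences were positive, with a median of 0.18. H2BC21 was the only member whose groups did not overlap, against 1.73% of all sets that lay wholly higher, by a margin of 0.0245. It was higher by 0.43 ± 0.12, with a 95% interval of 0.18 to 0.68, and the difference ranged between 0.036 and 0.85 in the 4 same-numbered pairs. Its unadjusted p in limma was 0.00194, and its adjusted p was 1.00, or 0.598 with the block. The RB1 set 211540_s_at read 0.97 ± 0.31 more in the RB plus SMYD2 arrays than in the RB arrays. It did not pass, and its groups overlapped (exact two-sided permutation p = 0.114). The other RB1 set, 203132_at, gave 0.074 ± 0.054. Whether RB1 bears on the difference of H2BC21 was not tested. H2BC4 differed by 0.084 ± 0.28, with an interval of -0.50 to 0.67, and gave -0.099 without RB 5 and 0.24 without RB 1.

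The effect of RB with SMYD2 was also set against its effect without SMYD2, as the interaction term of the same fit. The difference of the 2 effects was positive for all 7 sets, between 0.071 and 0.42, and 0 of 7 passed, against 0.00183% of all probe sets. For H2BC21 it was 0.42 ± 0.17 (adjusted p = 1.00), with an interval of 0.068 to 0.77. For H2BC4 it was 0.28 ± 0.39, with an interval of -0.54 to 1.11, and it ran between 0.089 without control 3 and 0.51 without SMYD2 3. For H2BC12 it turned to -0.019 without SMYD2 4.

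The replicate number marked the H2B sets within groups to differing degrees, and how many of all probe sets share this was not counted. On H2BC4, H2BC6, H2BC9 and H2BC12, both arrays numbered 1 and 3 lay above both numbered 4 and 5 in 4 of 4 groups. For H2BC4 the mean of the first pair exceeded that of the second by 0.54 with RB plus SMYD2, 0.79 with RB, 0.74 with SMYD2 and 0.74 in control. For H2BC9 it exceeded it by 0.13, 0.46, 0.68 and 0.34 in the same order of groups, and with RB, with SMYD2 and in control this gap was larger than the difference of 0.21 between RB and control. H2BC21 was split in this way in the RB and control groups and not in the other 2. Of the H2BC5 sets, 209911_x_at was split only with SMYD2 and in control, and 222067_x_at in every group but RB plus SMYD2.

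After the group means were removed, the H2B sets differed in how closely they moved together over the 16 arrays. H2BC6, H2BC9 and H2BC12 correlated with one another at 0.97 to 0.98, and the 2 sets of H2BC5 at 0.94. H2BC4 correlated with the others at 0.68 to 0.85. H2BC21 was the least tied to the others, at 0.50 to 0.69. These values are a description, since the sets share arrays, labelling and, for the _x_at sets, possibly target sequence.

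**Figure D3:**
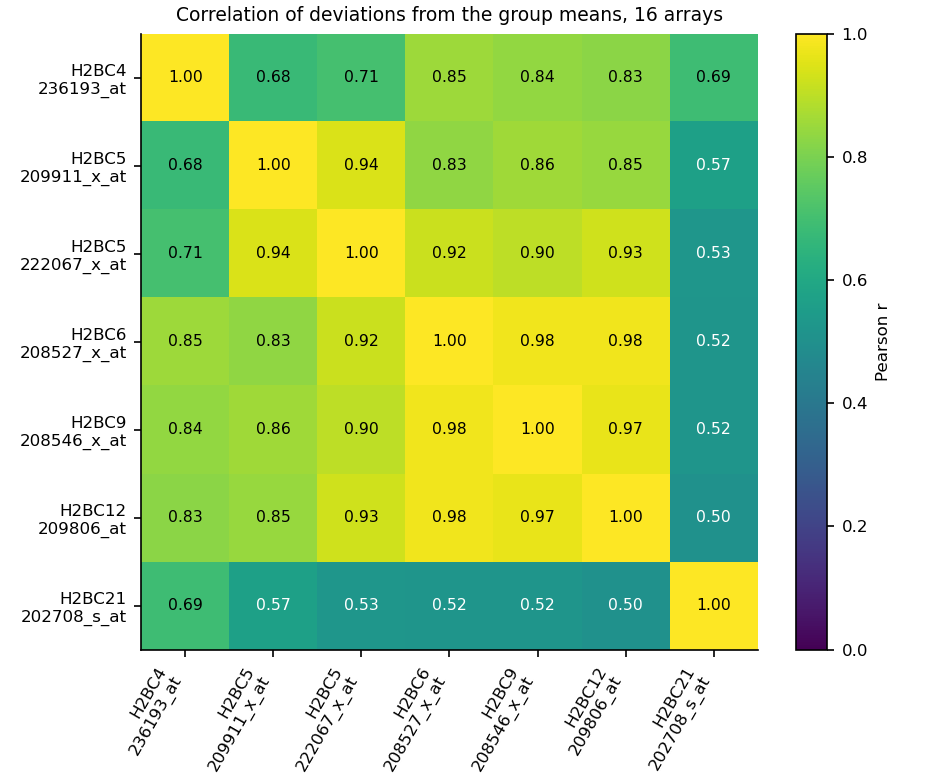
Pearson correlation between H2B probe sets of their deviations from the group means, over 16 arrays. The block of H2BC5, H2BC6, H2BC9 and H2BC12 lies at 0.83 or above, and the row of H2BC21 between 0.50 and 0.69.

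A further 5 probe sets list several H2B genes as their targets and name no single gene. Those that list 5 genes all list H2BC4, H2BC6, H2BC7, H2BC8 and H2BC10, so they are not separate from the members. Those that list 2 genes list H2BC8 and H2BC11. The plain set 214455_at, which lists 5 genes, read 9.55, 9.35, 9.15 and 9.18 with RB plus SMYD2, 9.52, 9.30, 8.92 and 8.55 with RB, 7.29, 7.88, 6.68 and 7.05 with SMYD2, and 7.62, 7.81, 7.18 and 7.05 in control. Its arrays with RB lay wholly above those without, as for the single-symbol set of H2BC4, a gene that is also among its targets. RB exceeded control by 1.66 ± 0.24 (adjusted p = 0.00189) and RB plus SMYD2 exceeded SMYD2 by 2.08 ± 0.24 (adjusted p = 5.27e-05). The other 2 sets that list the same 5 genes, H2BC4 again among them, are _x_at sets and differed less between RB and control. 208490_x_at gave 0.37 (adjusted p = 0.301, and 0.0211 with the block) and 208523_x_at gave 0.28 (adjusted p = 0.683). Of the 2 sets that list 2 genes, 215779_s_at rose between RB plus SMYD2 and SMYD2 by 0.78 (adjusted p = 0.00124), and between RB and control it gave 0.47 (adjusted p = 0.0857, and 0.0392 with the block). The second, 210387_at, gave 0.21 between RB and control (adjusted p = 0.764). With RB plus SMYD2 against SMYD2, 210387_at gave 0.53, 208490_x_at 0.41 and 208523_x_at 0.38 (adjusted p = 0.0808, 0.134 and 0.326), and all 3 passed with the block (adjusted p = 0.0446, 0.00568 and 0.0290).

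Other clustered H2B genes gave low signals on their single-symbol sets. H2BC7, H2BC8, H2BC10 and H2BC11 are also listed on the shared sets above, whose group means were 7.21 to 10.32. Which of the listed genes gave that signal is not known. Of 12 on the list, 7 had a single-symbol set, the mean of the 7 lay between 4.99 and 5.30 on each array, and 2 of the 7 lay above the median of all sets. RMA keeps no detection call, so low signals were not separated from background. None of the 7 rose or fell between RB and control, where 1.89% of genes passed, nor between RB plus SMYD2 and SMYD2, where 5.44% did. H2BC3 gave 0.27, H2BC14 0.14 and H2BC11 -0.23 between RB and control. With the block, H2BC11 alone of the 7 fell between RB plus SMYD2 and SMYD2, by 0.44 (adjusted p = 0.0290). H2BC12L, which is not on the list, was bright on 208579_x_at, with group means of 12.05 to 12.45. It gave 0.24 between RB and control (adjusted p = 0.708, and 0.0983 with the block). Between RB plus SMYD2 and SMYD2 it gave 0.38 (adjusted p = 0.266, and 0.00364 with the block).

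Of the other clustered histones, 29 of 51 had a set. Between RB and control 3 rose and 0 fell, while 0.617% of all genes rose. These were H4C8, which encodes a histone H4, by 1.41 ± 0.21 (adjusted p = 0.00255), the linker histone H1-2 by 1.13 ± 0.22 (adjusted p = 0.0164), and H2AC6, which encodes a histone H2A, by 0.90 ± 0.15 (adjusted p = 0.00451). The median of the 29 was 0.027, against 0.0056 over all genes. H1-2 no longer passed with control 4, control 5 or RB 3 left out (adjusted p = 0.0758 at the highest). Between RB plus SMYD2 and SMYD2, 6 rose and 1 fell, while 1.96% of all genes rose and 3.48% fell. H4C8 rose by 1.84, H1-2 by 1.40, H2AC6 by 1.35, H2AC15 by 1.03, H4C5 by 0.70 and H2AC14 by 0.54, and H2AC16 fell by 0.73. With the block 4 rose between RB and control, as H2AC15 joined (0.54, adjusted p = 0.00675 against 0.0535 without the block), while 2.62% of all genes rose. The block gave 7 higher and 2 lower between RB plus SMYD2 and SMYD2, as H2AC8 (0.67, adjusted p = 0.00176) and H3C11 (-0.33, adjusted p = 0.0316) joined, while 4.93% of all genes rose and 6.1% fell.

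By the order of protein-coding genes in RefSeq on GRCh38.p14, H2BC4 lies between H1-6 and H2AC6, and the next gene past H2AC6 is H1-4. Between RB and control, H2AC6 rose, H1-6 gave 0.059 ± 0.096 and H1-4 gave 0.30 ± 0.080 (adjusted p = 0.0868). H2BC5 and H2BC6 are neighbours, and H4C4 beside H2BC6 gave 0.14 ± 0.10. H2BC9 lies between H3C7 and H3C8, which gave 0.042 ± 0.090 and 0.016 ± 0.12, and H4C9 beside H2BC12 gave 0.062 ± 0.096. The genes on either side of H2BC21 have no single-symbol set.

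Of 18 measured genes that transcribe and process histone messages, none passed as higher between RB and control or between RB plus SMYD2 and SMYD2. Between RB and control, SRRT, a cap-binding partner in RNA processing, fell by 0.27 (adjusted p = 0.0202) and no other passed. SRRT lost its call with control 1, control 4, control 5, RB 4 or RB 5 left out (adjusted p = 0.0929 at the highest). With the block 2 fell, SRRT and CASP8AP2, a component of the histone locus body. The share of all genes that fell was 1.27%, and 2.63% with the block. SLBP, which binds the stem-loop, gave -0.19, and NPAT, the activator of histone genes, gave -0.13. Between RB plus SMYD2 and SMYD2, 4 fell: CASP8AP2 by 0.64, LSM11 of the U7 particle by 0.56, the poly(A) polymerase TENT4A by 0.39 and SRRT by 0.34. TENT4A lost its call without RB plus SMYD2 1 or 4 or SMYD2 4 or 5 (adjusted p = 0.0845 at the highest). In that comparison 3.48% of all genes fell, and 6.1% with the block. With the block 7 of the 18 fell and 1 rose, and 7 fell without the SMYD2 array 1.

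Of 15 measured genes of cleavage and polyadenylation, 0 passed between RB and control, and CPSF4 fell by 0.36 between RB plus SMYD2 and SMYD2, where 2 fell with the block and 0 with only the arrays of these 2 groups in the fit. Of 13 genes that attach ubiquitin to H2B or escort H2A and H2B, 0 passed in either comparison, and with the block 2 fell between RB plus SMYD2 and SMYD2. These counts of 0 to 2 stand beside 1.27% of all genes that fell between RB and control and 3.48% between RB plus SMYD2 and SMYD2, or 2.63% and 6.1% with the block.

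Among 9 measured histone genes outside the clusters, H2AX, the variant marked at DNA breaks, fell between RB and control by 0.53 (adjusted p = 0.00107), also with each array left out. In this comparison H2AX alone of the 9 fell, while 4 fell with the block and without the SMYD2 array 1, and 2 without the RB plus SMYD2 array 3. Of the 9, 5 fell between RB plus SMYD2 and SMYD2 with or without the block, while 3.48% of all genes fell, and the median of the 9 was -0.27. They were CENPA, the centromeric variant of H3, by 0.74, H2AX by 0.69, the linker histone H1-10 by 0.60, H2AZ2 by 0.36 and H2AZ1 by 0.27. The count was 3 without SMYD2 3, 4 or 5, and 1 without RB plus SMYD2 4 or 5 or with only the arrays of these 2 groups in the fit.

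Genes of S phase fell while H2BC4 and H2BC21 rose. Of 26 measured, 16 fell and 0 rose between RB and control, with a median of -0.55, and 1.27% of all genes fell. With each array left out the count ran between 8 and 20. It was 10 without control 3 or RB 5, 9 without control 4 or control 5, and 8 without RB 4. With the block 23 fell, as MCM4, MCM5, MCM6, GINS1, RRM2, RFC3 and RFC4 joined (adjusted p between 0.00073 and 0.0486), while 2.63% of all genes fell. Between RB plus SMYD2 and SMYD2, 23 fell and 0 rose, with a median of -0.74, and 25 fell with the block. The share of all genes that fell there was 3.48%, and 6.1% with the block. The mean of the 26 genes per array was 9.72 ± 0.14 with RB plus SMYD2, 9.98 ± 0.053 with RB, 10.47 ± 0.086 with SMYD2 and 10.51 ± 0.014 in control. Whether the lower S phase signal bears on the H2B values was not tested.

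**Figure D4:**
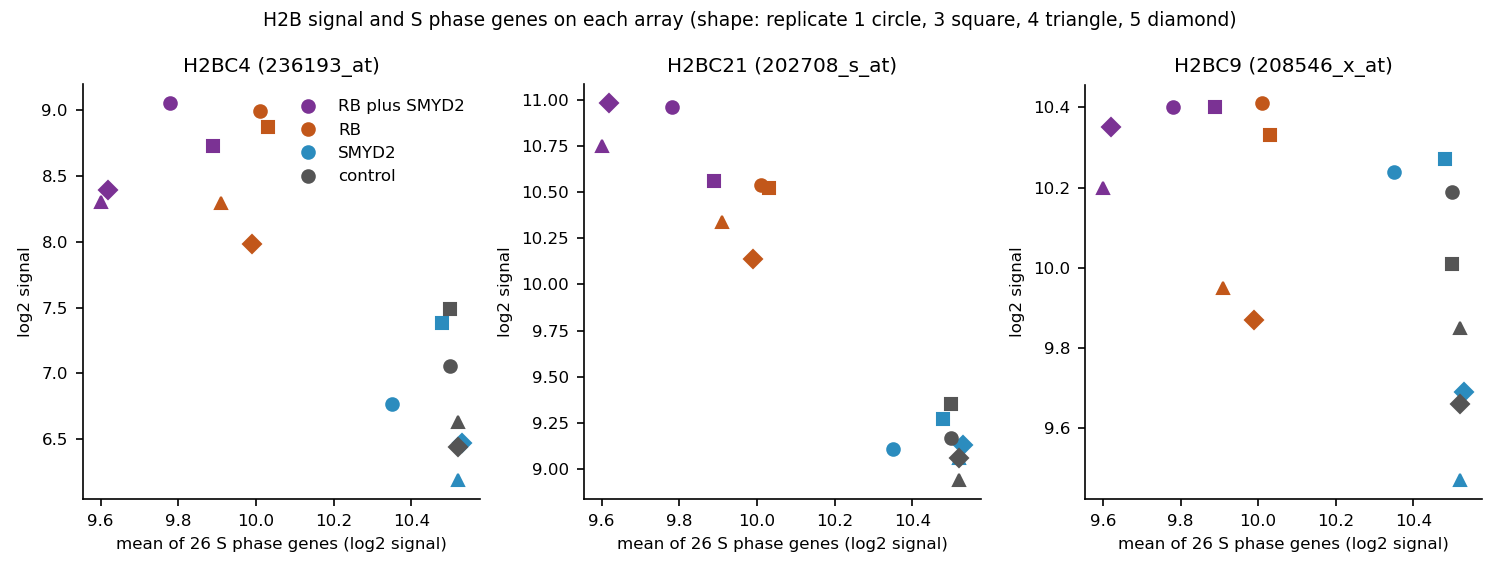
Log2 signal of H2BC4, H2BC21 and H2BC9 on each array (vertical, axes not starting at 0) against the mean log2 signal of 26 S phase genes on that array (horizontal). Colours give the group and shapes the replicate number. The 8 arrays with RB lie at lower S phase signal, between 9.60 and 10.03, and at higher H2BC4 and H2BC21, while their H2BC9 values overlap those of the other 8 arrays.

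The genes most like H2BC4 and H2BC21 were sought among 19769 other genes, by Pearson correlation over the 16 arrays. For H2BC4 these were PON2 (0.974), SLC16A4 (0.970), SPARC (0.963), PTPRG (0.956) and H4C8 (0.955). For H2BC21 they were PTGES (0.971), H4C8 (0.971), H2AC6 (0.969), CLU (0.963) and COLEC12 (0.961). H4C8 stood on both lists. With the group means removed, the genes most like H2BC4 were COPS8 (0.961), WNT5A (0.948), PON2 (0.946), CPM (0.941) and EPYC (0.938). Those most like H2BC21 were FAM241A (0.888), NSMAF (0.851), LINC00693 (0.836), RGS16 (0.819) and MXI1 (0.807), so that PON2 was the only gene on a list with and without the group means. These are the highest of 19769 values each and are given as a description.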

How the data were processed

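The deposited table holds log2 signals of 54675 probe sets on 16 arrays, made by the authors with RMA (background correction, quantile normalization and summary of each set's probes), per the submitters' processing notes, where no version is stated. The sources used here do not tell if the arrays were normalized as 1 set, nor which genome build was used. Precision is limited by how many arrays there are, 4 a group.

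Gene symbols came from the platform annotation: 41097 sets had 1 symbol, 1801 several and 11777 none. The H2B genes, and the other gene lists, were chosen with earlier results of these data known. Lists used the set of each gene with the highest mean. The genes named are all members, the sets that list several H2B genes, H2BC12L, the called and largest members of the lists, the nearest neighbours and the 5 most alike genes.

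Groups were compared by limma 3.58.1 in R 4.3.3, two-sided, in 7 comparisons. The model had a mean for every group, was fitted to all 16 arrays together, and used eBayes with the trend option. Same-numbered arrays correlated in their deviations from group means at 0.124 or more in 5 of the 6 pairs of groups and at -0.056 at the lowest between RB and SMYD2. For those 5 pairs the blocked fit is given beside the H2B sets and gene lists whose calls it changes. In each pair of groups, however, some arrays with different numbers correlated more closely than the least alike same-numbered arrays. Such values reached 0.330 between RB plus SMYD2 and RB, and 0.447 between SMYD2 and control. Equal numbers are therefore not shown to be pairs, and calls made only with the block rest on taking them so. The fit was tested on simulated data. Motifs were searched in RefSeq promoter sequences of GRCh38.p14. Alternatives covered the samples in the fit, scaling, probe set choice, dim sets, array weights, the trend, and fits that leave out 1 array. The plots were made in matplotlib 3.10.9.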

Additional observations from a re-analysis of the deposited data

How the results depend on the processing

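H2BC4 and H2BC21 passed in all 4 comparisons of groups with RB against groups without it under each of 9 alternatives and whichever of the 16 arrays was left out. The replicate block takes the replicate number as paired, which the correlations do not establish. With it, 5 of 7 H2B sets passed between RB and control (2 without it). Between RB plus SMYD2 and SMYD2 7 passed (3 without it), as between RB plus SMYD2 and control (3 without it). Between RB and SMYD2 5 passed (2 without it), although same-numbered arrays there correlated at -0.056 at the lowest. The block changed no other count of H2B sets. With array weights, 7 passed between RB plus SMYD2 and SMYD2 and 7 between RB plus SMYD2 and control, and with only the arrays of the 2 groups 6 passed between RB plus SMYD2 and control. With each array left out, the counts ran between 2 and 3 for RB against control, 3 and 6 for RB plus SMYD2 against SMYD2, and 3 and 4 for RB plus SMYD2 against control. Shares of all probe sets are not given for these alternatives, nor for the block between RB and SMYD2. Calls rose outside H2B too. With array weights, 9 of 18 histone processing genes fell between RB plus SMYD2 and SMYD2, against 4 in the reported fit. The higher counts are therefore not shown to be particular to H2B. Of the other clustered histones, 5 rose between RB and control with array weights or with 1 probe set per gene of highest mean (3 in the reported fit). The causes of these changes were not tested.

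Signs turned only among differences near 0. Between SMYD2 and control, quantile normalization again gave 0.0148 for H2BC6 and 0.00817 for H2BC9, and array weights gave -0.0281 for H2BC12 and -0.0392 for 222067_x_at of H2BC5. With each array left out, that comparison ran between -0.0520 and 0.0847 for H2BC21, -0.12 and 0.11 for H2BC6, -0.13 and 0.14 for H2BC9, -0.0771 and 0.10 for H2BC12, -0.0101 and 0.17 for 209911_x_at of H2BC5 and -0.0695 and 0.11 for 222067_x_at. RB plus SMYD2 against RB ran between -0.0987 and 0.24 for H2BC4, and the interaction for H2BC12 between -0.0188 and 0.16. Dim sets carry no detection call, which limits what the other H2B genes can show.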
